A study of Oryza sativa Japonica Group with 18 samples.

Results

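The genes described are the rice β-glucosidases that carry a systematic name, Os followed by a chromosome number, bglu and a number. All genes with such a symbol or synonym were taken: 31 genes, of which 27 had at least 1 probe set on the array (39 probe sets in all), out of 17905 genes of the series with a probe set. The brightest probe set of a gene, by its mean over the 18 arrays, stood for the gene, and 20 of the 27 genes lay in the brighter 44% of all probe sets and were tested (14749 genes in the whole series).

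β-Glucosidases of glycoside hydrolase family 1 cut a terminal glucose from small molecules. Plants keep many hormones, phenolics and defence compounds as inactive glucosides, commonly stored in the vacuole, and a β-glucosidase in the same or a neighbouring compartment can release the active molecule. Other members of the family trim short sugar chains of the cell wall, free monolignols for lignin, or move glucose from one molecule to another instead of to water.

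Total RNA came from roots of Nipponbare rice (Oryza sativa ssp. japonica), a wild-type cultivar grown in nutrient solution and 2 weeks old when the treatment began. Control seedlings (CK) had solution with 1 mM K+, and K+-starved seedlings (LK) had the same solution without its potassium salt. The labels have only the LK seedlings moved, while the methods have both groups moved to their solution. Roots were taken 6 h, 3 d and 5 d later, with 3 arrays for each of the 6 groups and separate CK arrays at every time. One RNA sample combined 5 seedlings, so the spread between arrays is a spread between pools of whole roots, in which fewer cells of a type and less RNA per cell cannot be told apart.

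Array medians ran from 22.1 to 23.4 signal units, and no 2 arrays held identical values. Of 10 measured shoot marker genes, such as chlorophyll a/b-binding proteins and glycolate oxidases (GLO), 9 were tested. Their summed signal was 5120 to 6250 in CK and 6020 to 6839 in LK at 6 h, 7955 to 9514 and 9081 to 10720 at 3 d, and 9033 to 9876 and 10920 to 12330 at 5 d, where CK and LK did not overlap. At 5 d 4 of the 9 were higher in LK and none lower, beside 10.5% of all probe sets tested that were higher and 12.8% lower. The 4 were GLO3, GLO5, RCABP69 and OsrbcS, while the chlorophyll a/b-binding genes CAB2R and RCABP89 were not called. No shoot marker was at 0, but RBCS1 lay between 3.56 and 6.72 units as a group mean. The 15 measured root markers, mostly nutrient transporters, summed to between 14320 and 16550 over all arrays. Their sums overlapped between CK and LK at 6 h and 3 d but not at 5 d, at 15070 to 15630 in CK and 15910 to 16550 in LK. Of the 9 root markers tested, 1 was higher and none lower at 6 h, 3 were higher and 2 lower at 3 d, and at 5 d there were 3 in each direction. The shares of all probe sets tested that were higher and lower were 0.27% and 0.258% at 6 h and 8.5% and 5.75% at 3 d, with those of 5 d given above. At 5 d HAK1 had means of 2187 in CK and 2743 in LK, and OsPT8 1575 and 2058. A gene with the synonym OsPT1 had 265 and 886. These were the 3 higher, and NRT2.3, IRT1 and Lsi2 were the 3 lower. The study also reports OsHAK1 as raised by K+ starvation. The root silicon channel Lsi1, with group means of 4668 to 5072, was called at no time. The part of the shoot or root marker differences in the results below was not tested.

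After 6 h without K+, 1 β-glucosidase gene, Os4bglu16, was lower, and none was higher. At 3 d 3 genes were lower and 1 was higher, and at 5 d 6 were lower and 1 was higher. Calls are at an adjusted p under 0.05, from limma's moderated test with Benjamini-Hochberg adjustment over all 25165 probe sets kept. Of those, 0.27% were called higher and 0.258% lower at 6 h, 8.5% higher and 5.75% lower at 3 d, and 10.5% higher and 12.8% lower at 5 d. The balance of these background calls turned with the scaling. At 3 d there were 2140 higher and 1448 lower, against 1799 and 2135 after quantile normalization and 1737 and 2134 after median centring. At 5 d there were 2643 and 3210, against 3173 and 3095 and against 3269 and 2870. The β-glucosidase shares were 5% lower at 6 h, 5% higher and 15% lower at 3 d, and 5% higher and 30% lower at 5 d, each over 20 genes. These shares count 1 probe set for each gene, whereas the background shares count every probe set kept. A background share over genes was not worked out. The gene higher at 5 d, Os7bglu26, was bright enough to be tested only through its LK arrays. At an unadjusted limma p under 0.05 there were 2 genes at 6 h, Os4bglu16 and Os3bglu6, both lower in LK. There were 8 at 3 d and 14 at 5 d. The share of all probe sets under this unadjusted threshold was not worked out, so these counts have no background beside them.

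The median log2 difference, LK minus CK, over the 20 genes took the values 0.04, -0.07 and -0.23 in order of time. Over all probe sets kept it was -0.00068, 0.04 and -0.03. The sign was negative in 9 of the 20 genes at 6 h and in 14 at both later times. No share of negative signs was worked out over all probe sets, so these counts have no background beside them. Over the 3 times, 11 genes were never called, 7 were called at 1 time, Os3bglu6 at 2 and Os4bglu16 at all 3. The same tally was not made over all probe sets.

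**Figure D1:**
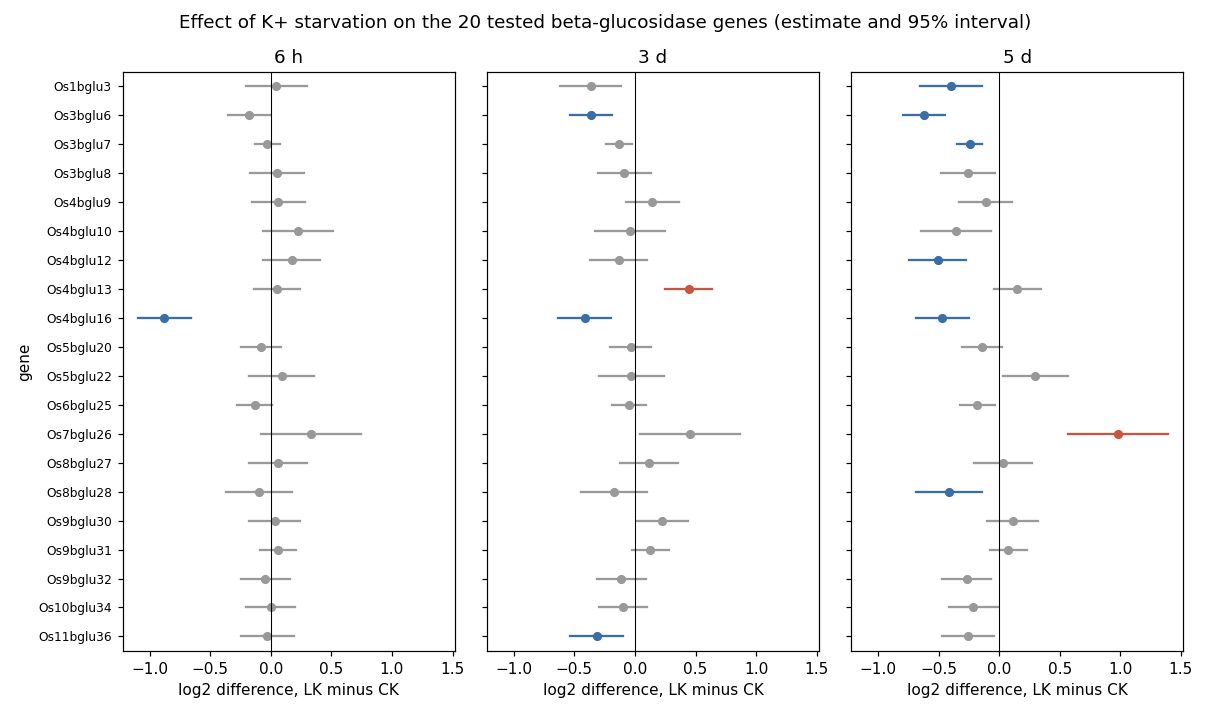
Difference between K+-starved (LK) and control (CK) roots for the 20 tested β-glucosidase genes at 6 h, 3 d and 5 d: points are limma estimates on the log2 scale and bars their 95% intervals. Blue marks genes called lower, red genes called higher and grey genes not called. Os4bglu16 stands alone at 6 h, at -0.88, while at 5 d 6 genes are blue and Os7bglu26 is red.

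Os4bglu16 belongs to a group of 3 neighbouring genes on chromosome 4, Os4bglu14, Os4bglu16 and Os4bglu18, whose proteins release monolignols, the building blocks of lignin, from their glucosides. At 6 h its signal was 187, 192 and 175 in the CK arrays and 117, 90.1 and 96.0 in the LK arrays. All LK arrays lay far under all CK arrays, at 0.547 times the CK mean (log2 difference -0.88 ± 0.10 SE, n = 3 per group, adjusted p = 0.000755).

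The gene stayed lower in starved roots. At 3 d the arrays read 136, 124 and 118 in CK and 96.8, 86.3 and 100.4 in LK, a ratio of 0.751 (-0.41 ± 0.10 SE, adjusted p = 0.0124). At 5 d they read 164, 189 and 167 in CK and 133, 131 and 112 in LK, a ratio of 0.724 (-0.47 ± 0.10 SE, adjusted p = 0.00343). CK and LK arrays did not overlap at either time. The 3 d call was lost without CK 3 d replicate 1 (adjusted p = 0.0567) or without LK 3 d replicate 2 (adjusted p = 0.0609). The difference at 6 h was not shown to exceed that at 5 d (5 d effect minus 6 h effect 0.41 ± 0.15 SE, adjusted p = 0.0921).

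The probe set behind these values is of the x_at type, which can bind more than 1 transcript. A second Os4bglu16 probe set, of the plain type, gave differences of -0.92, -0.54 and -0.48 in order of time, all called lower (adjusted p = 0.000755, 0.00301 and 0.00422). The monolignol glucosidases on either side of it were too dim to test. Os4bglu14 lay between 9.26 and 25.0 units over all 18 arrays and Os4bglu18 between 14.9 and 32.6 units.

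The level of Os4bglu16 also differed between times in control roots. It was lower at 3 d than at 6 h (means 126 ± 9.15 and 184 ± 8.75, SD, n = 3; log2 difference -0.55 ± 0.10 SE, adjusted p = 0.00142) and higher again at 5 d (173 ± 13.5 SD; 0.46 ± 0.10 SE against 3 d, adjusted p = 0.0124). At 6 h the LK mean, 101 ± 14.1, was below the CK mean of every time. The step from 3 d to 5 d lost its call without CK 5 d replicate 2 (adjusted p = 0.0804). The clock gene OsCCA1 also differed between treatments at 6 h, with 126 to 136 units in CK and 171 to 193 in LK (0.46 ± 0.07 SE, adjusted p = 0.00493), but was not called at 3 d (adjusted p = 0.254) or 5 d (adjusted p = 0.903). Its part in the Os4bglu16 difference was not tested.

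**Figure D2:**
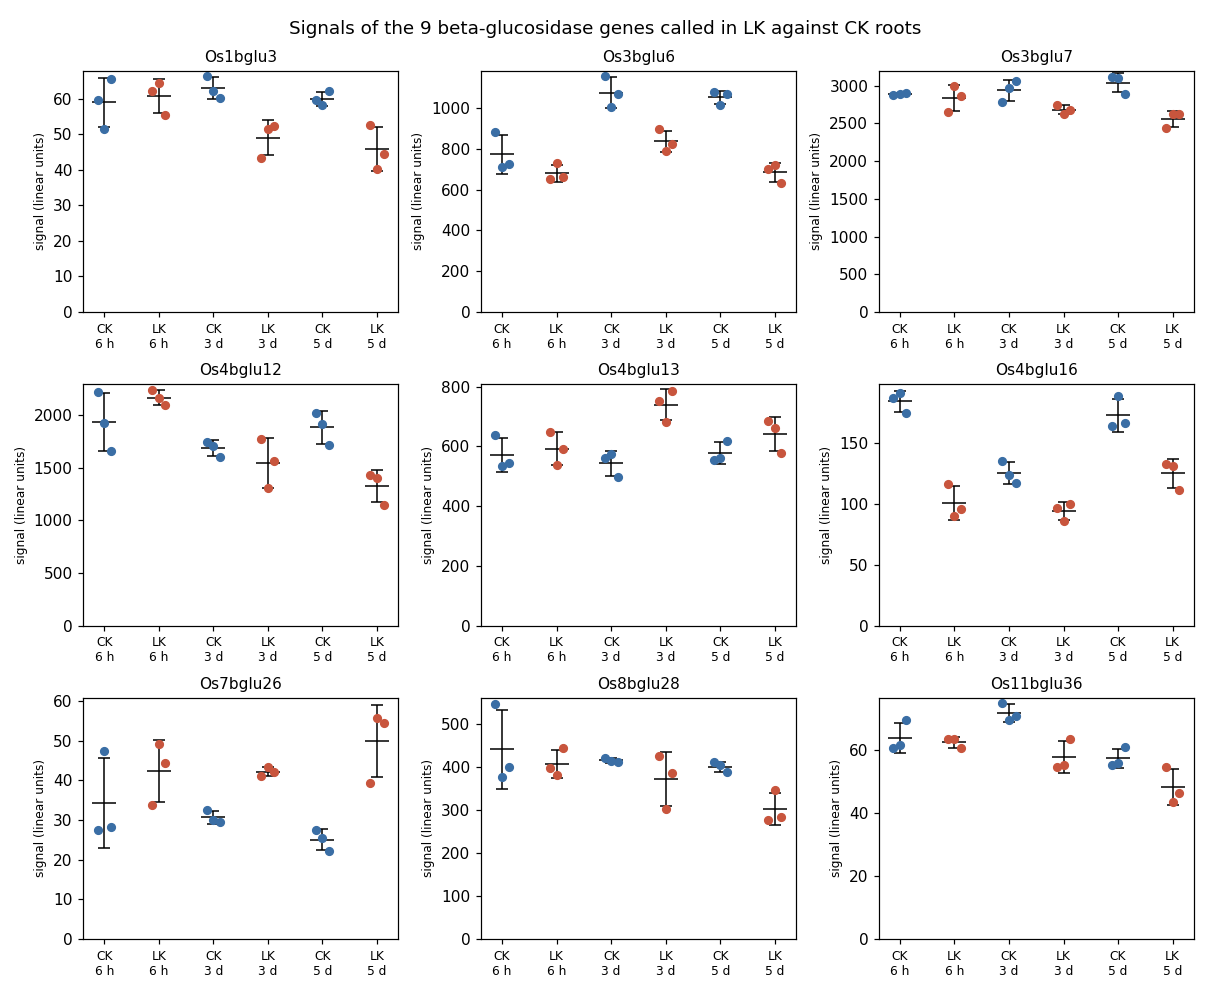
Signal (linear units, axis from 0) of the 9 β-glucosidase genes called in LK against CK at 1 or more times. Each point is 1 array, blue for CK and red for LK, and horizontal lines and bars give the mean and SD of 3 arrays; Os4bglu16 separates CK from LK at all 3 times, with 90.1 to 117 units in LK at 6 h against 175 to 192 in CK.

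Os3bglu6, Os4bglu12 and Os4bglu13 act on glucose conjugates of plant hormones. Os3bglu6 hydrolyses the glucose ester of abscisic acid and so can free the active hormone. Its differences in order of time were -0.18 ± 0.08 SE, -0.36 ± 0.08 SE and -0.62 ± 0.08 SE. At 6 h the arrays overlapped, with 883, 711 and 724 in CK and 654, 729 and 661 in LK (adjusted p = 0.523).

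At 3 d Os3bglu6 read 1157, 1005 and 1067 in CK and 896, 792 and 822 in LK, a ratio of 0.777 (adjusted p = 0.00623). At 5 d it read 1077, 1016 and 1067 in CK and 704, 720.4 and 631 in LK, a ratio of 0.65 (adjusted p = 3.06e-05). Neither time had any overlap, and both calls held in each of the 28 alternatives run. The 5 d effect was lower than the 6 h effect by 0.45 ± 0.12 SE on the log2 scale (adjusted p = 0.0205). That difference lost its call without a filter on low signal (adjusted p = 0.0713) and on leaving out CK 6 h replicate 2 or 3, LK 6 h replicate 2, CK 5 d replicate 1 or LK 5 d replicate 3 (adjusted p = 0.0512 to 0.0603).

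The control level of Os3bglu6 was higher at 3 d than at 6 h. CK roots averaged 773 ± 95.5 (SD, n = 3) at 6 h, 1076 ± 76.2 at 3 d and 1053 ± 32.5 at 5 d. LK roots averaged 681 ± 41.3, 837 ± 53.5 and 685 ± 47.4. In CK the step from 6 h to 3 d was 0.48 ± 0.08 SE on the log2 scale (adjusted p = 0.000568).

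Os4bglu12 hydrolyses glucosides of tuberonic acid, a hydroxylated jasmonate, and of salicylic acid. At 5 d its signal was 2019.6, 1916 and 1718 in CK and 1432, 1404 and 1151 in LK. All LK arrays lay under all CK arrays, at a ratio of 0.705 (-0.51 ± 0.11 SE, adjusted p = 0.00299). At 6 h and 3 d the arrays overlapped (0.17 ± 0.11 SE, adjusted p = 0.714, and -0.13 ± 0.11 SE, adjusted p = 0.462). The 5 d effect was lower than the 6 h effect by 0.68 ± 0.16 SE (adjusted p = 0.0101, or 0.0575 without a filter on low signal).

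A second Os4bglu12 probe set, with signals of 37.3 to 69.6 units, did not show the 5 d difference (-0.14, adjusted p = 0.638). It read 39.2, 55.3 and 50.1 in CK and 55.0, 39.9 and 37.3 in LK at 5 d, with overlapping arrays. Which transcripts each probe set binds was not examined.

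Os4bglu13 lies directly beside Os4bglu12 on chromosome 4 and acts on tuberonic acid glucoside and on glucosyl esters of gibberellin. It was the only gene of the set called higher at 3 d, with 561, 575 and 497 in CK and 754, 681 and 785 in LK. The arrays did not overlap and the ratio was 1.36 (0.44 ± 0.09 SE, adjusted p = 0.00322). At 5 d the signals were 553, 561 and 619 in CK and 686, 663 and 578 in LK. These overlapped (0.15 ± 0.09 SE, adjusted p = 0.26), and the change of effect from 3 d to 5 d was not called. A second Os4bglu13 probe set was too dim to test, with means of 13.7 in CK and 12.9 in LK at 3 d. At 5 d it read 17.5 to 23.8 in CK and 11.7 to 15.2 in LK.

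Os4bglu10 lies on the same stretch of chromosome 4, 1 gene away from Os4bglu12. Its 5 d signals were 62.6 to 73.0 in LK and 77.5 to 100.1 in CK. The arrays did not overlap, but the difference missed the threshold (-0.36 ± 0.14 SE, adjusted p = 0.0677), and its second probe set gave -0.02.

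Os3bglu7 and Os3bglu8, adjacent genes on chromosome 3, encode enzymes that act on short β-linked glucose chains such as those released from cell walls. Os3bglu7 varied little from array to array. At 5 d it read 3114, 3103 and 2894 in CK and 2439.6, 2625 and 2624 in LK. There was no overlap, and the ratio of 0.844 was the smallest change called at 5 d (-0.24 ± 0.05 SE, adjusted p = 0.00165).

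At 6 h the 95% interval of the Os3bglu7 difference ran from -0.13 to 0.08, and at 3 d the difference was -0.13 ± 0.05 SE (adjusted p = 0.0888). It was called lower at 3 d after quantile normalization (-0.16, adjusted p = 0.00486) or median centring (-0.18, adjusted p = 0.00503) and without CK 3 d replicate 1 (adjusted p = 0.0475). The 3 d arrays did not overlap, at 2627 to 2748 in LK and 2790.1 to 3065 in CK. Os3bglu8 gave -0.26 ± 0.10 SE at 5 d (adjusted p = 0.0873), with overlapping arrays, 269.8 to 315 in LK and 315 to 392 in CK.

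Os7bglu26, which has β-mannosidase activity, was the only gene called higher at 5 d. Its signals were 27.4, 25.5 and 22.3 in CK and 39.4, 55.8 and 54.4 in LK. The ratio was 1.99 (0.98 ± 0.20 SE), and no LK array overlapped CK. The geometric mean was 29.4 over its CK arrays and 44.3 over its LK arrays. It reached the lowest geometric mean kept, 32.2 units, only through the LK arrays, so that the filter favoured a difference in this direction and the adjusted p of 0.00148 carries that choice. Without the filter the adjusted p was 0.00902. The size of the difference depended on how low signals were treated, at 0.52 with 32 added before log2 and 0.093 with a floor of 50, which most of its arrays do not reach. At 3 d its arrays did not overlap either, 29.5 to 32.6 in CK and 41.0 to 43.3 in LK (0.46 ± 0.20 SE, adjusted p = 0.135). The gene was not tested when only the brightest 30% of probe sets were kept.

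For Os8bglu28 and Os1bglu3 no role is given here. Os8bglu28 read 410.5, 404 and 388 in CK and 276, 345 and 284 in LK at 5 d. The arrays did not overlap, at a ratio of 0.754 (-0.41 ± 0.13 SE, adjusted p = 0.0295). The call was lost without a filter on low signal (adjusted p = 0.108), with a floor of 50 (adjusted p = 0.0515), and on leaving out CK 5 d replicate 1 or 2 or LK 5 d replicate 1 or 3 (adjusted p = 0.0748 to 0.108). Its direct neighbour Os8bglu27 had a 5 d difference of 0.03 ± 0.11 SE, with a 95% interval of -0.21 to 0.27.

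Os1bglu3 read 59.5, 58.2 and 62.2 in CK and 52.5, 40.3 and 44.5 in LK at 5 d, a ratio of 0.764 (-0.40 ± 0.12 SE, adjusted p = 0.0236). At 3 d it read 66.5, 62.3 and 60.3 in CK and 43.3, 51.5 and 52.3 in LK. The arrays overlapped at neither time, although at 3 d the test just missed the threshold (-0.37 ± 0.12 SE, adjusted p = 0.0501). A second probe set was called lower at both times, with differences of -0.57 and -0.72 (adjusted p = 0.0412 and 0.00763). The 5 d call of the stronger probe set was lost on leaving out CK 5 d replicate 1 or 3 or LK 5 d replicate 2 or 3 (adjusted p = 0.0589 to 0.118).

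Os11bglu36 is the rice counterpart of SFR2, which in Arabidopsis remodels the galactolipids of the chloroplast envelope during freezing. At 3 d it read 75.1, 69.5 and 71.0 in CK and 54.6, 55.3 and 63.6 in LK. The arrays did not overlap, at a ratio of 0.804 (-0.32 ± 0.10 SE, adjusted p = 0.0483). This call was lost in 17 of the 27 alternatives run, 14 of which left out 1 array, including arrays of 6 h and 5 d that share only the estimate of the spread (adjusted p = 0.00702 to 0.146 over all 27). At 5 d the arrays did not overlap either, at 55.4 to 61.0 in CK and 43.7 to 54.8 in LK. That difference was not called (-0.26 ± 0.10 SE, adjusted p = 0.0831). The other probe sets of the gene were too dim to test. Their 3 d means were 18.4 in CK and 19.6 in LK, and 8.38 and 10.8. At 5 d the dimmer of them read 8.74 to 14.1 in CK and 15.75 to 21.9 in LK.

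The other 11 tested genes were called at no time. Among them were Os9bglu31, a transglucosidase that passes glucose between phenolic acids, hormones and flavonoids, with 0.07 ± 0.07 SE at 5 d (95% interval -0.08 to 0.23), and Os5bglu22, with 0.30 ± 0.13 SE (adjusted p = 0.105). Os9bglu32 came closest, with 229.6 to 257 units in LK and 273 to 318 in CK at 5 d (-0.27 ± 0.10 SE, adjusted p = 0.05 after rounding). Its second probe set gave -0.34 (adjusted p = 0.0361).

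**Figure D3:**
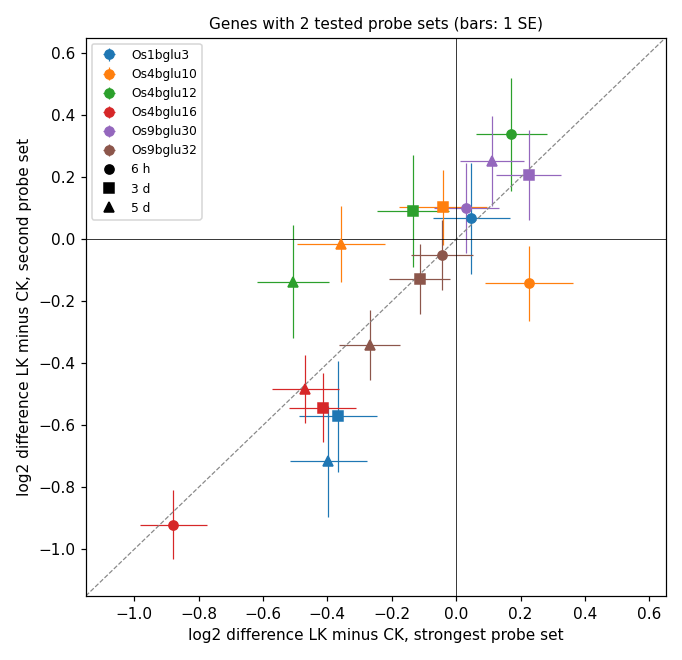
LK minus CK difference (log2) from the strongest probe set (x axis) and from the second tested probe set (y axis) of the 6 genes that had both, at 3 times; bars are 1 SE and the dashed line marks equal values. Of the 18 pairs of effects, 15 have the same sign; the Os4bglu16 points lie near the line, at -0.88 and -0.92 for 6 h, while Os4bglu12 at 5 d lies away from it, at -0.51 and -0.14.

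Genes of the set that sit next to one another on a chromosome can be set side by side at 5 d. Os4bglu12 had -0.51 and its neighbour Os4bglu13 had 0.15. Os3bglu7 had -0.24 and Os3bglu8 -0.26. Os8bglu27 had 0.03 and Os8bglu28 -0.41. Os9bglu31 had 0.07 and Os9bglu32 -0.27, and Os4bglu9 had -0.11 and Os4bglu10 -0.36. Within 3 of these 5 pairs the sign differed. The positive member of each was not called at 5 d (adjusted p = 0.26 for Os4bglu13, 0.878 for Os8bglu27 and 0.507 for Os9bglu31). Differences between neighbours were not tested.

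Of the genes with a probe set, 7 were too dim to test: Os1bglu1, Os1bglu5, Os4bglu14, Os4bglu18, Os5bglu19, Os9bglu33 and Os12bglu38. Their signals lay between 1.38 and 42.1 units over all arrays. Os1bglu5, singled out after its values were seen, read 18.2, 14.4 and 19.0 in CK and 32.4, 36.3 and 31.4 in LK at 3 d. The arrays did not overlap, and without the filter the gene was called higher at 3 d (0.96, adjusted p = 0.00912). At 5 d it lay at 23.6 to 25.7 in CK and 32.4 to 42.1 in LK. Os1bglu2, Os1bglu4, Os5bglu21 and Os6bglu24 had no probe set in the annotation used and were not analysed here.

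Between times, the effect of starvation on these genes was called different for Os3bglu6 and Os4bglu12 alone, both in the comparison of 5 d with 6 h and both downward. That is 10% of the 20 genes, beside 5.31% of all probe sets called lower and 4.85% called higher. No gene was called for 3 d against 6 h, where 1.74% of all probe sets were higher and 1.14% lower, or for 5 d against 3 d, where 0.656% were higher and 0.374% lower. At an unadjusted limma p under 0.05 there were 3 genes in each of these comparisons, with no share of all probe sets worked out at that threshold.

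In control roots, 7 of the 20 genes differed between times. From 6 h to 3 d, 3 were higher and 3 lower, while 5.91% of all probe sets were higher and 9.18% lower. Os6bglu25 was higher, at 353 ± 28.0 (SD, n = 3) at 6 h and 486 ± 18.0 at 3 d (0.46 ± 0.07 SE, adjusted p = 0.000132). Os9bglu31, the transglucosidase, was higher as well, at 561 ± 21.8 and 718 ± 79.5 (0.35 ± 0.07 SE, adjusted p = 0.00275).

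Os9bglu32 and Os10bglu34 were lower at 3 d than at 6 h, as was Os4bglu16. Os9bglu32 went from 407 ± 58.9 to 322 ± 24.7 (-0.33 ± 0.10 SE, adjusted p = 0.0249), and Os10bglu34 from 901 ± 122 to 720.1 ± 23.0 (-0.31 ± 0.10 SE, adjusted p = 0.0329). The Os9bglu32 call was lost in 6 alternatives (adjusted p = 0.0509 to 0.124): without a filter, with only the arrays compared, and without CK 6 h replicate 1 or 2 or CK 3 d replicate 1 or 3. The Os10bglu34 call was lost in 11 (adjusted p = 0.0501 to 0.155), among them leaving out CK 6 h replicate 1 or 3 or any CK 3 d array. Those 11 take in a fit with a replicate block within time points, whose comparison between times is not one of group means. The third gene that was higher was Os3bglu6, described above.

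From 3 d to 5 d, 3 genes were higher and none lower, beside 7.56% and 1.63% of all probe sets. They were Os4bglu16, Os6bglu25, which reached 599.9 ± 15.9 (0.30 ± 0.07 SE, adjusted p = 0.0115), and Os4bglu9, from 97.2 ± 7.24 to 127 ± 18.5 (0.38 ± 0.10 SE, adjusted p = 0.0286). The Os4bglu9 call was lost in 9 alternatives (adjusted p = 0.0644 to 0.162), among them both other normalizations and leaving out CK 3 d replicate 1 or 3 or CK 5 d replicate 1 or 2. The Os6bglu25 call was lost in 3 (adjusted p = 0.0578 to 0.13), including median centring and leaving out CK 5 d replicate 1. For both genes these alternatives take in the fit with a replicate block within time points, whose comparison between times is not one of group means. At an unadjusted limma p under 0.05 there were 7 genes, with no share of all probe sets worked out at that threshold. Sampling hour, plant age and time on fresh solution cannot be told apart in these comparisons. In CK, OsCCA1 read 126 to 136 at 6 h, 729.6 to 812 at 3 d and 1129 to 1270.0 at 5 d, and the summed shoot markers, at 5120 to 6250 in CK at 6 h and 7955 to 9514 at 3 d, did not overlap between these times.

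**Figure D4:**
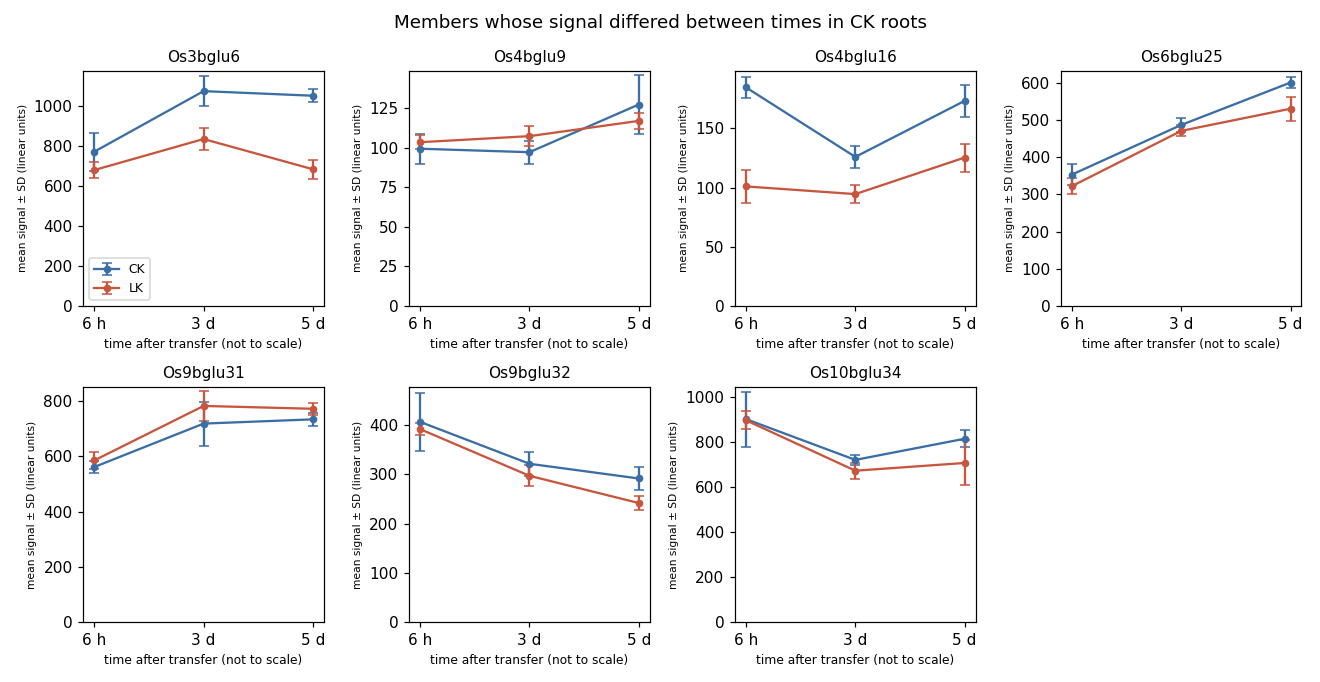
Mean signal ± SD (linear units, 3 arrays per point, axis from 0) at 6 h, 3 d and 5 d, spaced evenly rather than to scale, in CK (blue) and LK (red) roots for the 7 genes whose CK level differed between times. Os6bglu25 goes from 353 at 6 h to 599.9 at 5 d in CK, and Os3bglu6 is at 1053 in CK and 685 in LK at 5 d.

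Genes that make or use molecules of the kinds that β-glucosidases can free from glucosides were listed by name. Of 15 tested genes of monolignol synthesis, none was called at 6 h, 5 were lower and 1 higher at 3 d, and 6 were lower and none higher at 5 d, with median differences of -0.04, -0.11 and -0.25. The name pattern also takes in genes called 4CLL, for ligase-like. The gene higher at 3 d was 4CLL4, and those lower included 4CLL1 at 3 d and 4CLL7 at 5 d. The smallest p at 5 d belonged to 4CL1, a 4-coumarate:CoA ligase (-0.46 ± 0.05 SE, adjusted p = 3.52e-06), CAD2 (-0.23 ± 0.04 SE, adjusted p = 0.000526) and CAD8A (-0.39 ± 0.07 SE, adjusted p = 0.000929), both named as cinnamyl alcohol dehydrogenases. Unlike Os4bglu16, none of the 3 was called at 6 h (adjusted p = 0.11, 0.587 and 0.252); the differences between genes were not tested.

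Among 8 tested laccases, the oxidases that can couple monolignols, LAC24 was higher at 6 h (0.61 ± 0.09 SE, adjusted p = 0.00675). At 3 d 1 was higher and 1 lower, and at 5 d 2 were higher and 3 lower, LAC24 among the lower (-0.35 ± 0.09 SE, adjusted p = 0.0103). Median differences were -0.15, -0.08 and -0.21.

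Of 15 tested genes of jasmonate synthesis, none was called at 6 h, 3 were higher and 5 lower at 3 d, and 1 was higher and 6 lower at 5 d, with medians of 0.01, -0.11 and -0.23. LOX8, a lipoxygenase, was lower at 5 d (-2.34 ± 0.25 SE, adjusted p = 3.52e-06), from a mean of 52.6 units to 8.05, below the floor of 10. LOX5, of the same family, was lower too (-0.41 ± 0.05 SE, adjusted p = 1.37e-05). OPR10, of the oxophytodienoate reductase family, was higher by 1.02 ± 0.16 SE (adjusted p = 0.000134).

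Of 3 tested genes of abscisic acid synthesis and breakdown, ABA8OX2, whose family breaks the hormone down, was higher at 3 d (0.73 ± 0.17 SE, adjusted p = 0.00944) and, from a mean of 37.7 units to 72.1, at 5 d (0.93 ± 0.17 SE, adjusted p = 0.000881). The others were not called, and the list medians in order of time were -0.05, 0.38 and 0.36. Of 2 tested gibberellin enzymes, GA20OX3, of a family that makes gibberellin precursors, was higher at 3 d (0.40 ± 0.09 SE, adjusted p = 0.00644) and, from 783 to 1091 units, at 5 d (0.48 ± 0.09 SE, adjusted p = 0.000983). None of these genes was called at 6 h. Each list is set against the shares of all probe sets given above, and nothing particular to a list was tested.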

How the data were processed

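Biotin-labelled RNA was hybridised to Affymetrix Rice Genome Arrays. The authors made raw data with GCOS 1.0 (MAS5 is also named in the submitters' processing notes) and normalized all 18 arrays together in dChip; the deposited value is 1 signal intensity per probe set and array, on a linear scale. No detection calls were used here.

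Gene names came from the platform annotation and RefSeq synonyms; 16 of the 20 strongest probe sets were of the plain type, 2 of x_at, 1 of s_at and 1 of a_at. Any signal lower than 10 was set to 10 (33.8% of all values) before log2, and only the brightest 44% of probe sets by mean log2 were tested. One limma fit (3.58.1, R 4.3.3; lmFit, eBayes with trend) of 6 groups gave 12 residual and 5.03 prior degrees of freedom. p values were adjusted by Benjamini-Hochberg over all probe sets kept, per contrast. Ratios are of mean linear signals, and a log2 difference with the floor understates changes of dim genes. The fit was tested on simulated data.

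Genes called at any time are given array by array, and other lists by at most 3 genes, those with the smallest adjusted p at a time. Members, lists and alternatives were chosen with earlier results of these data known. Alternatives covered the filter, normalization, floor, block, trend, probe set, arrays left out, and the study's ratio of 1.2 with an unadjusted limma p. The name patterns for UDP-glucosyltransferases and endo-1,3-β-glucanases matched no gene. No sequences were printed, since none were at hand.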

Additional observations from a re-analysis of the deposited data

Results flagged for a closer look

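Os3bglu6 and Os4bglu12 stood out because the effect of K+ starvation differed between 5 d and 6 h in a test of the difference itself (limma interaction contrast). For Os3bglu6 the 5 d effect minus the 6 h effect was -0.45 ± 0.12 SE on the log2 scale (adjusted p = 0.0205, and 0.00257 to 0.0713 over 28 alternatives). LK was below all CK arrays in 3 of 3 arrays at 5 d. For Os4bglu12 the difference was -0.68 ± 0.16 SE (adjusted p = 0.0101, and 0.00107 to 0.282 over the alternatives with a test). Its 30 alternatives include a mean over probe sets, which has no p. Again 3 of 3 LK arrays lay below all CK arrays at 5 d.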

How the results depend on the processing

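With 3 arrays a group the median SE of a difference over the 20 genes was 0.103 log2 units. Os4bglu16 was called lower at 6 h in all 30 alternatives run. The count of genes lower at 5 d (6) was 4 to 9 with single arrays left out and 5 to 8 otherwise. It stayed within 1.5 times in all 30, a tolerance that itself spans 4 to 9. The genes behind the count changed. Os1bglu3 and Os8bglu28 lost their calls in some alternatives, while Os9bglu32, Os4bglu10 or Os6bglu25 gained one in others.

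Genes higher at 3 d (1) became 2 without a filter on low signal or with a ratio of 1.2 and unadjusted p. They became 0 with the second strongest probe set, because that of Os4bglu13 was too dim to test. Genes lower at 3 d (3) became 5 under quantile normalization or median centring, which added Os1bglu3 and Os3bglu7, and 1 to 4 with single arrays left out (1 without LK 3 d replicate 2). Genes higher at 5 d (1) became 0 with the top 30% of probe sets, 2 with only the arrays compared or with a ratio of 1.2 and unadjusted p, and 1 to 2 with single arrays left out (2 without CK 3 d replicate 1).

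Genes whose effect was lower at 5 d than at 6 h (2) became 0 without a filter, 1 with the second probe set, and 1 to 4 with single arrays left out: 1 without CK 6 h replicate 2 or 3, LK 6 h replicate 2, CK 5 d replicate 1 or LK 5 d replicate 3, and 4 without CK 5 d replicate 3. Genes whose effect was higher at 5 d or at 3 d than at 6 h (0 each) were 0 to 1, with 1 without LK 6 h replicate 1.

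In CK roots, genes lower at 3 d than at 6 h (3) became 1 without a filter or with only the arrays compared, Os9bglu32 and Os10bglu34 losing their calls, and 1 to 3 with single arrays left out (1 without CK 6 h replicate 1 or CK 3 d replicate 1 or 3). Genes higher at 5 d than at 3 d (3) became 1 under median centring, and 1 to 3 with single arrays left out (1 without CK 5 d replicate 1 or 2). Genes lower at 5 d than at 3 d (0) became 1, Os11bglu36, with a floor of 50, no intensity trend, 32 added before log2, median centring or quantile normalization, and 0 to 1 with single arrays left out (1 without CK 5 d replicate 3 or LK 5 d replicate 1).

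Among the 9 genes called in LK against CK, directions reversed only where the effect was near 0 and not called. With the second probe set this was Os4bglu12 at 3 d (0.092). With single arrays left out it was, at 6 h, Os1bglu3 (-0.0455 to 0.127), Os3bglu7 (-0.0685 to 0.0197), Os4bglu13 (-0.0138 to 0.133), Os8bglu28 (-0.202 to 0.0681) and Os11bglu36 (-0.0648 to 0.0338). Of the 11 tested genes never called, Os4bglu10 reversed with its second probe set. Its difference was 0.23 against -0.14 at 6 h, and -0.04 against 0.10 at 3 d. The other alternatives were not searched for reversals in those 11 genes. The causes were not tested.

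CK and LK arrays share replicate numbers in the labels, but only 4 of 9 same-numbered pairs deviated together by more than 0.1 (r from -0.09 to 0.26). The best match carried the same number in 5 of 9, among them every CK array of 5 d (r from 0.0722 to 0.177). Such correlations cannot show that the arrays were unpaired. The main fit did not pair them, and replicate blocks were run as alternatives. With a replicate block within time points genes higher at 5 d became 2. The calls of Os1bglu3 at 5 d (adjusted p = 0.0568) and Os11bglu36 at 3 d (adjusted p = 0.1) were lost. In that fit a CK level stands for replicate 1 of its time, so its comparisons between times are not of group means. There genes higher in CK at 5 d than at 3 d became 1 (Os5bglu22, in place of the other 3). Os9bglu31 and Os10bglu34 lost their CK calls at 3 d against 6 h (adjusted p = 0.126 and 0.0833). These CK changes are therefore no check of the comparisons of group means. With a block across time points genes lower in CK at 5 d than at 3 d became 1.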
